A study of Homo sapiens with 19 samples.

Results

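Clathrin-mediated endocytosis was examined through 8 genes in HMLE/Twist-ER cells, namely CLTA and CLTB, the clathrin light chains, PICALM, NUMB, REPS1, EHBP1, DNM2 and ITSN1. They were chosen by symbol, and every row of the 15 deposited splicing tables that carries one of these symbols was taken, 383 of 218798 rows. These rows describe 164 of the 100239 distinct splicing events, over 114 different variable segments, and belong to 8 of the 11998 genes in the tables. HMLE/Twist-ER is a TERT-immortalized human mammary epithelial line with an inducible Twist-ER fusion, so all groups share that transgene and 1 cell background. Untreated cells are the epithelial state (EPI), and cells kept in 20 nM tamoxifen until their morphology was mesenchymal are the mesenchymal state (MES). In each state, cells stably carried, from a lentiviral vector, either a non-specific shRNA (control) or an shRNA against AKAP8, an RNA-binding protein. Poly(A) libraries numbered 3 for control and 3 for knockdown cells in EPI, and 3 for control and 2 for knockdown cells in MES. AKAP8 eCLIP (crosslinking of the protein to RNA, immunoprecipitation and sequencing) was made with 2 replicates and their inputs in each state. The series asks how AKAP8 affects splicing in both states and how this relates to the splicing changes of the epithelial-mesenchymal transition (EMT).

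Clathrin triskelia, each built of heavy and light chains, polymerise into a coat on patches of plasma membrane where adaptors have gathered receptors. The coat and its adaptors bend the membrane into a pit, dynamin closes around the neck of the pit and cuts it with GTP, and the vesicle then loses its coat and enters the recycling routes. Adaptors such as NUMB decide which receptors are taken in, and in epithelial cells this traffic handles junction proteins, integrins, growth factor receptors and Notch.

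Inclusion is given as PSI, the percentage of transcripts that hold the variable segment, computed from junction reads and corrected for the number of positions that can give such reads. A skipped exon event (SE) was called changed at an adjusted p-value (FDR) under 0.05 and a PSI difference of at least 10 percentage points. Libraries are listed below as the tables list them, without replicate numbers. The summed SE junction reads ranged from 31258177 to 40852217 per library. AKAP8 had mean scaled junction reads of 266 in EPI control, 115 in EPI knockdown, 275 in MES control and 115 in MES knockdown, a log2 fold change of -1.20 in both states that passed the gene threshold in MES but not in EPI. In MES the AKAP8 call was lost without the first EPI control, the first or the third MES control or either MES knockdown library (log2 fold change -1.28 to -0.93, FDR 0.0563 to 0.177). All 5 epithelial markers found in the tables, of 13 listed, were lower in MES control than in EPI control, and all 10 mesenchymal markers found, of 12 listed, were higher. The 4 markers of leukocytes, endothelium, astrocytes and smooth muscle had no event in the tables.

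The exons on which the results turn are shown first, with the REPS1 exon, which passed no test. They were read from GRCh37 on the transcribed strand with 20 bases of intron on each side. Capitals mark the exon. Each begins after AG and ends before GT. The DNM2 exon of 12 nt (chr19:10919245-10919256), DNM2 exons of 139 nt (chr19:10906737-10906875 and chr19:10908056-10908194), EHBP1 exon of 108 nt (chr2:63215066-63215173), PICALM exons of 150 nt (chr11:85701293-85701442) and 24 nt (chr11:85689113-85689136), NUMB exons of 144 nt (chr14:73745989-73746132) and 33 nt (chr14:73783098-73783130), REPS1 exon of 81 nt (chr6:139247538-139247618) and ITSN1 exon of 46 nt (chr21:35199122-35199167) are printed.
DNM2 12 nt: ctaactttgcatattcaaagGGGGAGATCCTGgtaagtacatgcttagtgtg
DNM2 139 nt, upstream: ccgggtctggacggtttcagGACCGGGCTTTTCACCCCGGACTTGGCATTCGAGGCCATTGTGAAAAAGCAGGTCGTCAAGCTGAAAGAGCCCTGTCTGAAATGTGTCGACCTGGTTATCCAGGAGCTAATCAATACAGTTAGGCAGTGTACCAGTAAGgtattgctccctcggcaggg
DNM2 139 nt, downstream: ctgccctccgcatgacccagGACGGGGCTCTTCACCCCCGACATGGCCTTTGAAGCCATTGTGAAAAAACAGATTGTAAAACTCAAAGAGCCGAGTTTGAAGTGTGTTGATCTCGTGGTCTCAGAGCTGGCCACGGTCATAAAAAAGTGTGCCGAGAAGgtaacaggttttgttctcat
EHBP1 108 nt: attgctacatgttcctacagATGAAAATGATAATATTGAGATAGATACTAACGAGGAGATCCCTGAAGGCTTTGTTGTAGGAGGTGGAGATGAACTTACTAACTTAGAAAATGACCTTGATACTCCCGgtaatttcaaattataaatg
PICALM 150 nt: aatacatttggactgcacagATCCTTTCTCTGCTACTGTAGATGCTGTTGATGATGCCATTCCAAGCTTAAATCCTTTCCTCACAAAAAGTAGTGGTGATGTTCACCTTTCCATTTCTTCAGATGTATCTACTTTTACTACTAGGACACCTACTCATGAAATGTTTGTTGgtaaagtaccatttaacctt
PICALM 24 nt: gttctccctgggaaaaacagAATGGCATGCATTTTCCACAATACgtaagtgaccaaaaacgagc
NUMB 144 nt: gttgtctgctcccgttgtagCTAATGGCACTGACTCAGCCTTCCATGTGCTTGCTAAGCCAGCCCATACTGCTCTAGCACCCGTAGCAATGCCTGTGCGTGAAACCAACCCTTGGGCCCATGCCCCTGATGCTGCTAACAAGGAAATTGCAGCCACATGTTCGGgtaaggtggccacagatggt
NUMB 33 nt: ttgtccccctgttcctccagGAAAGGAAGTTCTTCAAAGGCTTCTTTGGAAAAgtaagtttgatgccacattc
REPS1 81 nt: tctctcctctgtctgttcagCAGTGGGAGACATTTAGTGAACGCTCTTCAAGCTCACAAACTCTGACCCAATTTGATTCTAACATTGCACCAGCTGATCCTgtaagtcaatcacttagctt
ITSN1 46 nt: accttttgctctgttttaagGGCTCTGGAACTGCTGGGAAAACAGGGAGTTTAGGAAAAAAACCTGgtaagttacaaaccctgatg

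In the Gencode annotation lifted to GRCh37, the exons of DNM2, EHBP1 and NUMB and the 24 nt exon of PICALM are coding. Those of 150 nt in PICALM, 81 nt in REPS1 and 46 nt in ITSN1 are coding in some transcripts and UTR in others. The exons of 12, 24, 33, 81, 108, 144 and 150 nt are multiples of 3, and hold 4, 8, 11, 27, 36, 48 and 50 codons. The 139 nt exons of DNM2 and the 46 nt exon of ITSN1 are not. The 139 nt exons are equal in length and identical at 97 of 139 bases (69.8%), and the short DNM2 exon is part of 3 of the 9 annotated coding transcripts.

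Of the SE events of the 8 genes, 92 were tested in the EPI knockdown comparison, 82 in MES knockdown and 92 in EMT, which sets MES control against EPI control. In EPI knockdown 1 of 92 was changed, beside 0.0588% of all SE events tested. In MES knockdown 2 of 82 were changed, beside 0.0479% of all. In EMT 9 of 92 were changed (9.78%), in 5 genes, beside 1.4% of all. The 8 genes were chosen with earlier results of these data known, so their shares are no test of the set. Among the 9, 2 are forms of 1 PICALM exon that share reads. Of the 9, 7 had lower inclusion in MES and 2 had higher inclusion, and over all events 0.628% were lower and 0.772% were higher. The typical event of these genes moved little: the median absolute PSI difference was 0.46 points in EPI knockdown, 0.59 in MES knockdown and 0.49 in EMT, against 0.58, 0.79 and 0.68 over all SE events. The changed events were thus a few exons among many that moved little. With limma on the logit of PSI as the test, 0 events of the 8 genes were changed in either knockdown comparison and 2 in EMT, so most calls below rest on the quasi-binomial test. Both knockdown comparisons share control libraries with EMT, so a high or low control library moves both, and their values are given side by side only.

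**Figure D1:**
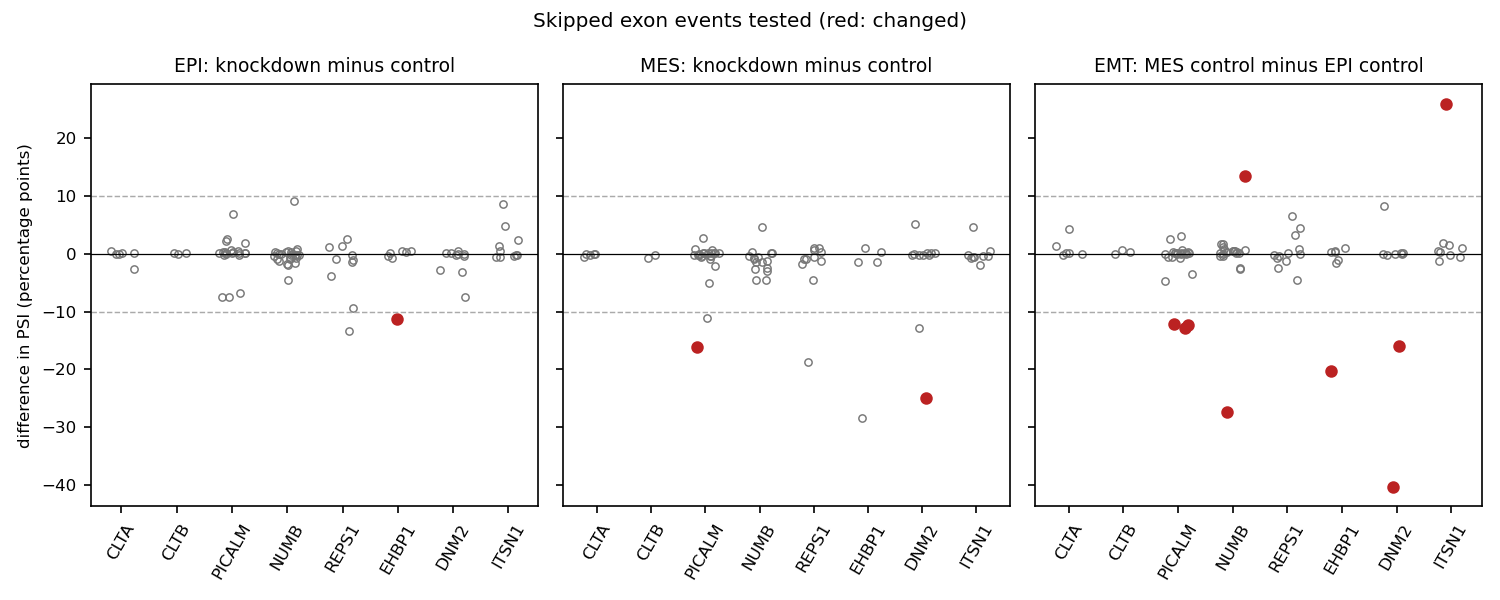
The difference in PSI in percentage points (vertical axis) of every tested SE event by gene (horizontal axis) is plotted for EPI knockdown, MES knockdown and EMT, with changed events in red and dashed lines at 10 points. Most events lie near 0, and the lowest red point is the 12 nt exon of DNM2 in EMT at -40.43 points.

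With p left unadjusted and under 0.05 at the same size, 2 SE events of the 8 genes passed in EPI knockdown, 6 in MES knockdown and 9 in EMT, beside 0.782%, 1.06% and 3.23% of all. Of mutually exclusive exon events (MXE), 0 of 24 were changed in EPI knockdown (0 also at an unadjusted p under 0.05), 0 of 18 in MES knockdown (1 at an unadjusted p under 0.05) and 4 of 27 in EMT (14.8%), beside 0.0261%, 0.0304% and 2.29% of all MXE events. Of alternative 3' and 5' splice sites and retained introns, 9 events were tested in each comparison and 0 were changed in any of them by this limma-moderated test, with 1 event at an unadjusted p under 0.05 in EPI knockdown, 1 in MES knockdown and 0 in EMT. The shares over all genes were 0.0168%, 0.143% and 1.82%. A test of whether the knockdown effect differed between the states called 0 of 64 SE events (0 at an unadjusted p under 0.05 with a difference of at least 10 points), beside 0.00993% of all SE events, or 1.47% at an unadjusted p under 0.05.

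Among the coat genes, the cassette exons of the clathrin light chains were nearly absent in all groups. CLTA and CLTB have cassette exons that are known to be used mainly in neurons, and these were chosen here after their values were seen. The 54 nt CLTA exon (chr9:36209264-36209317) had mean PSI values of 0.018% in EPI control, 0.028% in EPI knockdown, 0% in MES control and 0.037% in MES knockdown, from a mean of 1634 reads per library. In MES control 0 of 5204 pooled reads included it, which allows a PSI of up to 0.0376% (at 3 reads, counting error only). The 36 nt CLTA exon (chr9:36210622-36210657) had means of 0.53%, 0.54%, 0.27% and 0.18% in the same order. The 54 nt CLTB exon (chr5:175823480-175823533) had means of 0.38%, 0.58%, 0.60% and 0.42%. Almost all junction reads of both genes thus skipped these exons, and no SE event of either gene was changed in any comparison. A 118 nt exon of CLTA passed the FDR in EMT (FDR = 0.013) with a difference of 1.39 points, far below the size required.

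PICALM, a clathrin assembly protein that binds phosphoinositides and sorts SNAREs into pits, had lower inclusion of 2 exons in MES, and of 1 of them also with AKAP8 knockdown in MES. The 150 nt exon had PSI values of 42.9%, 51.8% and 51.4% in EPI control, and 42.7%, 43.7% and 37.3% in EPI knockdown. It had 37.1%, 36.4% and 34.1% in MES control, and 19.7% and 21.5% in MES knockdown. Both MES knockdown libraries lay below every other library, and the EPI control and EPI knockdown libraries overlapped. The PSI difference was -16.2 points in MES knockdown (FDR = 0.00231) and -12.8 in EMT (FDR = 0.00383). In EPI knockdown it was -7.46 points (FDR = 0.705), and the difference between the knockdown effects was -7.82 points (FDR = 0.66). The MES knockdown call was lost without any single one of the 4 libraries other than the second knockdown library (FDR 0.221 to 0.365).

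The same PICALM exon has a shorter form of 129 nt that begins 21 bases later. Both forms have the same flanking exons and 5' splice site, so the junction after the exon and the skipping junction count for both. The PSI of the 129 nt event is therefore not the share of transcripts with that form. Its mean was 36.3% ± 5.36 in EPI control (SD, n = 3) and 28.9% ± 2.37 in EPI knockdown (n = 3). It was 24.2% ± 2.39 in MES control (n = 3) and 13.9% ± 0.195 in MES knockdown (n = 2). It fell by 12.1 points in EMT (FDR = 0.00486), while its MES knockdown difference of -11.2 points had FDR = 0.0718. The choice between the forms moved little: the 21 bases were used in 93.9%, 92.5%, 91.5% and 90.9% of transcripts with the exon in the 4 groups. The separate 24 nt exon had 86.9%, 78.6% and 86.6% in EPI control and 68.3%, 74.3% and 72.7% in MES control, which did not overlap. It fell by 12.3 points in EMT (FDR = 0.000829), and its differences in knockdown were -6.71 points in EPI (FDR = 0.705) and -4.98 in MES (FDR = 0.763). Each of these 3 EMT calls was lost without the third EPI control library (FDR 0.0631 to 0.103). The calls of the 150 and 129 nt forms were also lost without the second EPI control (FDR 0.0919 and 0.138), the 129 nt form without the second MES control (FDR = 0.0756), and the 24 nt exon without the first EPI control (FDR = 0.0598).

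Among the adaptors, NUMB binds AP2 and the tails of integrins and Notch and takes them into pits. Its alternative exons are best known for adding residues to the proline-rich region, the 144 nt exon, and to the phosphotyrosine-binding domain, the 33 nt exon. The 144 nt exon had 50.2%, 48.1% and 49.9% in EPI control, and 56.0%, 40.4% and 45.7% in EPI knockdown. It had 20.2%, 26.0% and 19.9% in MES control, and 18.2% and 19.1% in MES knockdown. All EPI libraries were above all MES libraries, and within EPI the knockdown libraries lay on both sides of the controls. Inclusion fell by 27.3 points in EMT (FDR = 8.86e-10). This call held in 14 of 15 alternative settings and was lost with limma on the logit of PSI (FDR = 0.0929). The knockdown differences were -2.0 points in EPI (FDR = 0.749) and -4.48 in MES (FDR = 0.763).

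The 33 nt exon of NUMB moved the other way in EMT. It had 30.7%, 34.6% and 30.1% in EPI control, and 44.5%, 47.6% and 43.7% in MES control, without overlap. Inclusion rose by 13.5 points (FDR = 0.0328), a call lost without any single one of the 6 libraries other than the third MES control (FDR 0.0613 to 0.25). The EPI knockdown libraries spread from 32.6% to 49.0%, with a difference of 9.17 points (FDR = 0.705), and the MES knockdown difference was 4.68 points (FDR = 0.763). An MXE event pairs the 144 nt exon with an exon upstream of it, and the upstream exon had 69.4% ± 1.59 in EPI control, 72.0% ± 0.636 in EPI knockdown and 82.2% ± 0.595 in MES control (SD, n = 3 in each). Its share rose by 12.7 points in EMT (FDR = 0.000442), from reads that partly count the same junctions as the 144 nt exon. With limma on the logit of PSI this MXE call was lost (FDR = 0.0822). The NUMB exon with the most reads among its variable ones, a UTR exon of 85 nt (chr14:73833605-73833689), had means of 75.4%, 75.3%, 76.6% and 78.4% in the 4 groups and was not changed.

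REPS1, an EH domain protein of the endocytic machinery, had no changed event. Its 81 nt exon, chosen after its values were seen, had 70.1%, 68.1% and 65.4% in EPI control, and 52.9%, 56.9% and 53.6% in EPI knockdown. It had 60.6%, 70.3% and 58.9% in MES control, and 46.7% and 46.8% in MES knockdown. Knockdown and control libraries did not overlap in either state, and the difference was -13.4 points in EPI (FDR = 0.705) and -18.7 in MES (FDR = 0.76). An alternative 5' splice site event that uses the 5' splice site of this exon (chr6:139247538-139251113) had means of 56.2%, 41.1%, 48.6% and 31.8% in EPI control, EPI knockdown, MES control and MES knockdown. Its differences were -15.1 points in EPI knockdown (FDR = 0.546), -18.9 in MES knockdown (FDR = 0.288) and -7.64 in EMT (FDR = 0.446), so none passed. Reads across that 5' splice site can count for both this event and the 81 nt exon, so the values are no independent measurements. The most read of the other variable REPS1 exons, of 106 nt (chr6:139228632-139228737), stayed between 88.2% and 97.0% in all libraries.

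EHBP1, which links EH domain proteins of the recycling compartment to actin, had the lone change of the 8 genes in EPI knockdown. Its 108 nt exon had 93.1%, 88.7% and 93.5% in EPI control, and 75.4%, 85.2% and 80.8% in EPI knockdown. It had 67.4%, 66.5% and 80.6% in MES control, where the highest value came from the library that the MES knockdown tables do not include. In MES knockdown it had 40.2% and 36.8%. The knockdown libraries were below all control libraries of their own state, and the difference was -11.3 points in EPI (FDR = 0.0485), -28.4 in MES (FDR = 0.0635) and -20.3 in EMT (FDR = 7.76e-07). With the third MES control the MES difference was -33.0 points (FDR = 0.00214). The EPI call was lost in 9 of 15 alternative settings, among them each of the 6 libraries left out other than the second knockdown library (FDR 0.0643 to 0.798). The difference between the knockdown effects was -21.7 points (FDR = 0.778).

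DNM2, the dynamin found in most tissues, is the GTPase that cuts the neck of the pit. Its 12 nt exon had the highest inclusion in EPI control and the lowest in MES knockdown. It had 94.6%, 93.9% and 95.2% in EPI control, and 85.9%, 88.8% and 86.7% in EPI knockdown. It had 56.9%, 56.2% and 49.3% in MES control, and 29.4% and 33.7% in MES knockdown. The 4 groups did not overlap. Inclusion fell by 40.4 points in EMT (FDR = 1.88e-32), the largest SE difference among the 8 genes, and this call held in all alternatives run. In MES knockdown it fell by 25.0 points (FDR = 0.000258), a call lost without any single one of the 4 libraries other than the second knockdown library (FDR 0.141 to 0.16). In EPI knockdown the difference was -7.42 points (FDR = 0.201). The difference of the knockdown effects between the states was -15.2 points, but the test, made on the logit scale, gave FDR = 0.985.

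The 139 nt exons of DNM2 are alternatives to each other, and the upstream one was less used in MES control than in EPI control. The SE event of each takes the other as a flanking exon, so their PSI values are not the shares of transcripts with each exon. The SE events also share junctions with the MXE event of the pair. The upstream exon had 96.7%, 90.1% and 92.6% in EPI control, 85.8%, 91.0% and 94.1% in EPI knockdown, 77.0%, 75.0% and 79.5% in MES control, and 60.7% and 65.5% in MES knockdown. It fell by 16.0 points in EMT (FDR = 1.84e-05), and its difference in MES knockdown was -12.9 points (FDR = 0.763). The downstream exon had means of 2.05% ± 1.15 in EPI control (SD, n = 3), 2.62% ± 0.845 in EPI knockdown (n = 3), 10.4% ± 1.20 in MES control (n = 3) and 15% ± 0.639 in MES knockdown (n = 2). It was 8.31 points higher in EMT (FDR = 4.69e-11), below the size required of a changed event. With PSI computed without effective lengths, the upstream exon fell by 9.32 points, under the size required, and the downstream exon was 14.8 points higher, above it. The MXE event that counts both exons together gave the upstream exon 96.3%, 94.9%, 84.1% and 75.7% of the pair in EPI control, EPI knockdown, MES control and MES knockdown. That share fell by 12.2 points in EMT (FDR = 1.34e-16), and its difference in MES knockdown was -8.39 points (FDR = 0.246). In EPI knockdown it was -1.35 points (FDR = 0.817).

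Both other changed MXE events of DNM2 were tested in EMT and not in the knockdown comparisons. Each value is the share of the exon nearer the gene start, and whether the exons of a pair exclude each other was not tested. One (chr19:10909162-10913034) rose from 4.11% ± 2.68 to 19% ± 0.678 (SD, n = 3 in each state; FDR = 4.94e-11), and its upstream neighbour is the downstream 139 nt exon. The other (chr19:10912964-10916643) fell from 96.9% ± 0.78 to 78.4% ± 2.55 (SD, n = 3 in each state; FDR = 3.37e-15), and it counts the junction that skips the 12 nt exon. They share reads with the exons above and are no independent measurement of them.

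ITSN1, a scaffold of EH and SH3 domains that brings dynamin and other partners to the pit, had the thinnest data. Its 46 nt exon was covered by 47 to 107 junction reads per library. It had 23.5%, 26.1% and 31.8% in EPI control, 44.8%, 30.3% and 32.0% in EPI knockdown, 49.7%, 65.6% and 44% in MES control, and 60.3% and 64.1% in MES knockdown. All MES control libraries were above all EPI control libraries. Inclusion rose by 26.0 points in EMT at an FDR that rounds to the threshold (FDR = 0.05), and the call was lost in 8 of 15 alternative settings. The knockdown differences were 8.57 points in EPI (FDR = 0.705) and 4.59 in MES (FDR = 0.778). Without any single one of the 6 libraries other than the third MES control the FDR in EMT was 0.0776 to 0.431.

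**Figure D2:**
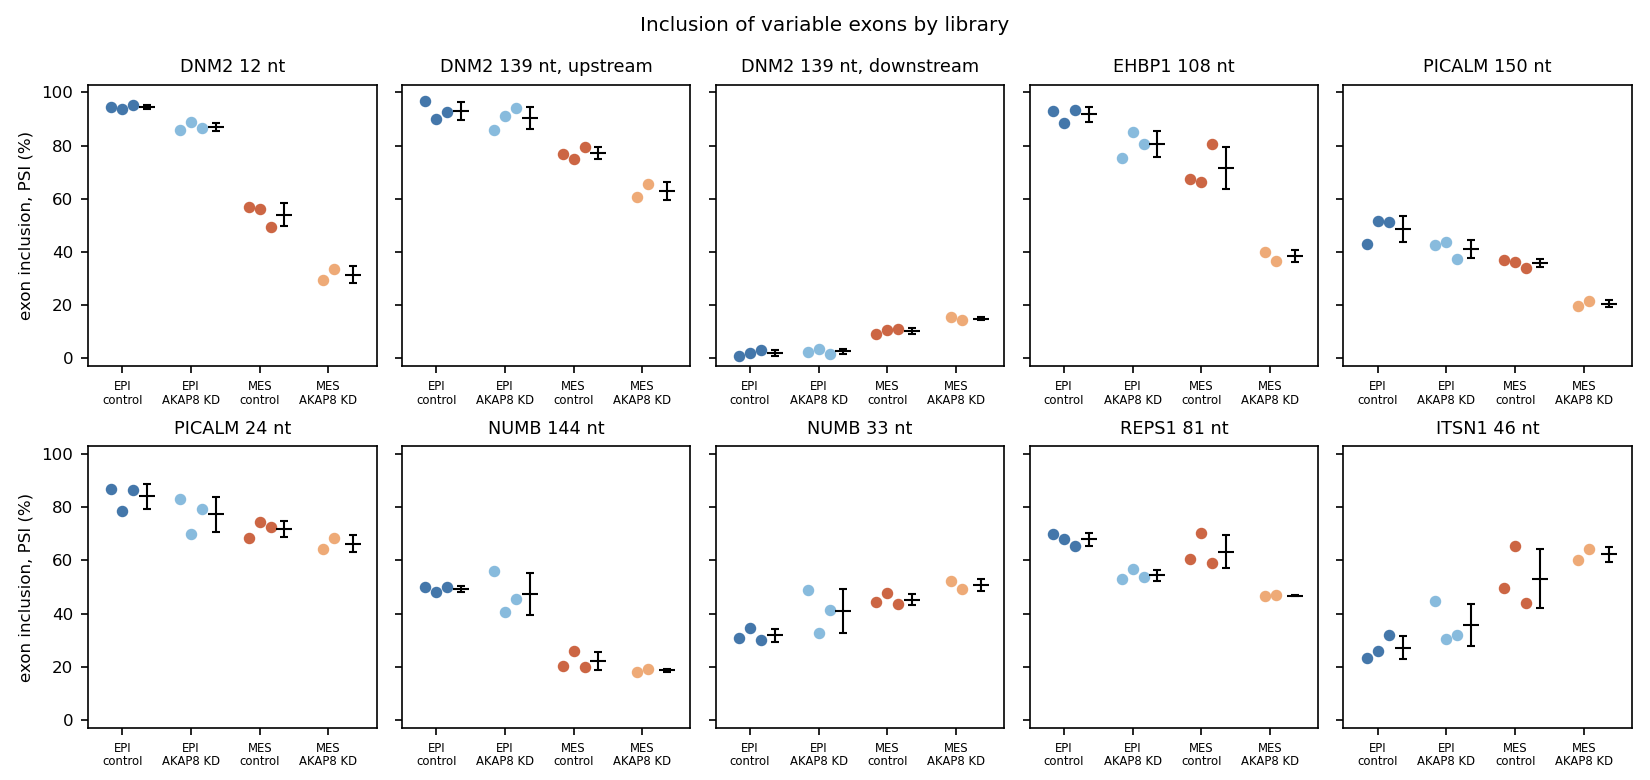
PSI in percent (vertical axis) of 10 exons is shown for each of the 11 libraries, as points, by group (horizontal axis), with the mean and SD of the group as a black bar beside them. The 12 nt exon of DNM2 descends from about 94.5% in EPI control to 31.5% in MES knockdown, and the EPI and MES libraries of the 144 nt exon of NUMB do not overlap.

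The exons whose PSI ran most alike over the 11 libraries were looked up among 4488 SE events of all genes with a PSI range of at least 20 points. For the 12 nt exon of DNM2 they included exons of ACLY (r = 0.98) and ARHGEF10L (r = 0.98). For the upstream 139 nt exon they were exons of ZDHHC16 (r = 0.97), ACLY (r = 0.96) and DNM1L (r = 0.96). For the 144 nt exon of NUMB they were exons of CD44 (r = 0.98), USO1 (r = 0.97) and BAIAP2 (r = 0.97). For the other changed exons the highest r was between 0.93 and 0.97. These values describe 11 libraries that fall into 4 groups and share the step between the states, and the exons were picked as the highest of many.

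The level of each gene was approximated by its junction reads, summed over the SE events present in all 3 comparisons and scaled between libraries. A read that serves several events enters the sums repeatedly, the sums can move with inclusion, and they cannot separate fewer cells that express a gene from less RNA per cell. Of the 8 genes, 0 were changed in EPI knockdown at an FDR under 0.05 and a log2 fold change over 1 in size by limma (0 at an unadjusted p under 0.05), beside 0.189% of all genes. In MES knockdown 0 were changed, beside 2.27%. At an unadjusted p under 0.05, 1 of the 8 passed there, beside 1963 of all 9014 genes. In EMT 1 was changed, beside 12.5% of all genes, of which 5.38% were higher and 7.16% lower. At any fold, 3 of the 8 passed the FDR in EMT, beside 23.9% of all genes. The median log2 fold change in EMT was 0.09 over the 8 genes and 0.01 over all genes tested.

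CLTB was the gene that changed. It had 2705, 3723 and 3011 scaled reads in EPI control and 1539, 1521 and 1399 in MES control, so the states did not overlap. Its log2 fold change was -1.07 (SE 0.17, FDR = 0.000513), and without the second EPI control library it was -0.94 and from the single SE event with the most reads -0.95, both under the size required. In knockdown its log2 fold changes were 0.06 in EPI (FDR = 0.978) and 0.03 in MES (FDR = 0.948). Its partner CLTA had means of 5128 in EPI control, 5595 in EPI knockdown, 6878 in MES control and 8916 in MES knockdown, with a log2 fold change of 0.40 in EMT (FDR = 0.0952).

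EHBP1 and NUMB were also lower in MES, by less than the size required. EHBP1 had 1537, 1271 and 1735 scaled reads in EPI control and 692, 851 and 982 in MES control, a log2 fold change of -0.85 (SE 0.18, FDR = 0.00425). NUMB had 6213, 7207 and 6696 in EPI control and 4852, 5038 and 4952 in MES control, a log2 fold change of -0.44 (SE 0.14, FDR = 0.039). Neither gene overlapped between the states. EHBP1 was the gene at an unadjusted p under 0.05 in MES knockdown, with 581 and 645 reads and a log2 fold change of -0.44 (FDR = 0.222). DNM2, PICALM, REPS1 and ITSN1 had log2 fold changes of 0.07, 0.11, 0.22 and 0.46 in EMT, none past the FDR, so the DNM2 exons moved while the sum of its reads did not pass the test. Scaling to total reads lowered the median log2 fold change of all genes by 0.11 in EMT and by 0.12 in MES knockdown.

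**Figure D3:**
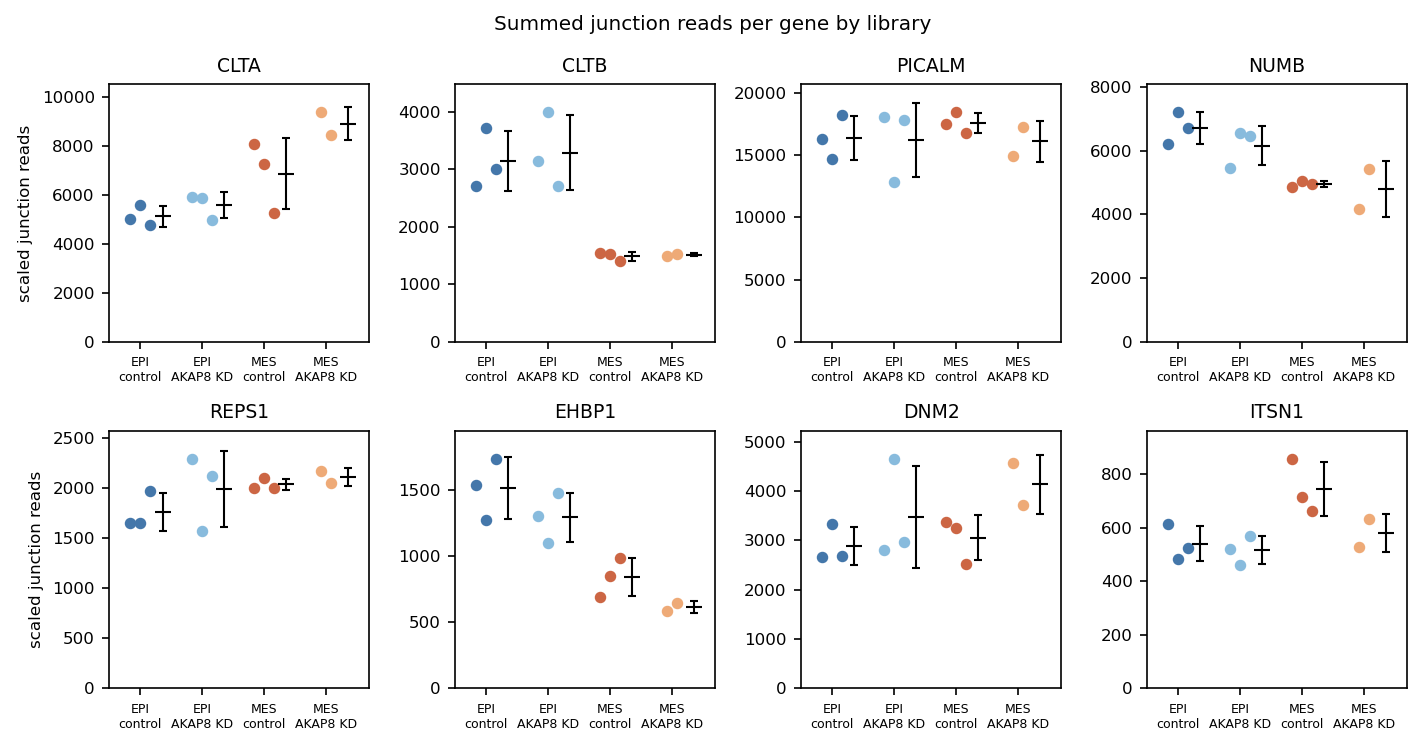
Scaled junction reads per gene (vertical axes, from 0) are shown for each library, as points, by group (horizontal axis), with the mean and SD as a black bar. CLTB falls from a mean of 3146 in EPI control to 1486 in MES control, and its knockdown means are 3290 in EPI and 1515 in MES.

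The wider endocytosis machinery was described by a list of 78 further genes, of which 59 were tested for junction reads. In EPI knockdown 0 were changed by limma, beside 0.189% of all genes. At an unadjusted p under 0.05, 5 of the 59 passed, beside 889 of all 9014 genes. In MES knockdown 1 was changed, beside 2.27% of all genes. It was TOM1, an adaptor for ubiquitinated cargo, higher at a log2 fold change of 1.5 (FDR = 0.0181). In EMT 5 were higher and 3 lower, beside 5.38% and 7.16% of all genes, so the share of changed genes in the list was near the background of 12.5%. The higher ones were BIN1, a membrane-curving partner of dynamin, at 3.02 (FDR = 2.32e-06), REPS2, the paralog of REPS1, at 2.89, the receptor LRP1 at 2.50, the cargo adaptor DAB2 at 1.63 and the lipid phosphatase INPPL1 at 1.23. The lower ones included the kinase TNK2 at -1.69 and the epsin EPN3 at -1.65. FNBP1, which curves membranes, had a log2 fold change of 0.90 in EMT (FDR = 0.001). The transferrin receptor TFRC, the standard cargo of this route, had log2 fold changes of -0.79 in EMT (FDR = 0.0034) and -0.88 in MES knockdown (FDR = 0.0194). The last values passed the FDR but not the size.

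In the same list, 1 of 417 SE events was changed in EPI knockdown, 1 of 381 in MES knockdown and 10 of 437 in EMT (2.29%), 5 higher and 5 lower in 8 genes, beside 0.0588%, 0.0479% and 1.4% of all SE events. DNM1L, a dynamin relative that divides mitochondria, included a 33 nt exon at 83.8% ± 2.04 in EPI control and 48.5% ± 4.16 in MES control (SD, n = 3 in each; FDR = 2.2e-15), and its neighbouring 78 nt exon at 61.5% ± 3.05 and 33.1% ± 5.71 (FDR = 1e-05). Both DNM1L events have the same flanking exons, so the junction that skips them counts for both and they are no independent measurements. BIN1 gained 24.2 points of a 129 nt exon in EMT (FDR = 0.011). AP2M1, the cargo-binding subunit of the AP2 adaptor, has a 6 nt exon (chr3:183898433-183898438) whose PSI fell by 14.5 points in EMT, from 73.5% ± 2.58 to 58.9% ± 6.25 (SD, n = 3 in each state), and rose by 15.7 points in MES knockdown, from 55.6% ± 3.29 to 71.3% ± 1.35 (n = 2 in each group). FNBP1 gained 42.2 points of a 96 nt exon in EPI knockdown, from 55.8% ± 8.85 to 98.0% ± 3.43 (SD, n = 3 in each group, FDR = 0.029). That exon was covered by a mean of only 34.7 junction reads per library. The event calls of this list, those of FNBP1 and AP2M1 included, were not tried with single libraries left out. The AP2M1 values in EMT and in MES knockdown share control libraries.

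AKAP8 eCLIP peaks were taken from the merged list of each state, with 24637 peaks in EPI and 30390 in MES. On the strand of the genes, 33 EPI peaks and 18 MES peaks lay over the 8 genes, and 0 lay on the opposite strand. DNM2 held 18 of the EPI peaks and 17 of the MES peaks, all intronic. NUMB held 8 peaks, CLTB 5 and EHBP1 2 in EPI and none in MES, and ITSN1 held 1 in MES and none in EPI. Listed peaks can overlap each other, and those of NUMB, CLTB and EHBP1 formed 4, 4 and 1 separate sites. All 8 NUMB peaks also lay in another annotated gene on the same strand, so they cannot be assigned to NUMB alone. CLTA, PICALM and REPS1 had none in either list. Over all genes of the splicing tables found in the annotation, 20.3% of 11078 held a peak in EPI and 14.4% in MES, with a median of 3 peaks among those with any, and 2.49% and 2.87% held at least as many as DNM2. These counts were not scaled to gene length. DNM2 spans 115434 nt, and CLTB, with 5 peaks in EPI and none in MES, spans 24039 nt. The lists were called separately in each state and hold 1 merged value per peak, so no test between the states was made. CLTB, EHBP1 and NUMB, without a peak in MES, also had fewer scaled junction reads there, with means of 1486, 842 and 4947 against 3146, 1515 and 6705 in EPI control, and the part of this in the peak counts was not tested.

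DNM2 peaks ran from 500 to 111930 nt after the gene start. The highest value in EPI was a log2 of IP over input of 4.71 at chr19:10858205-10858258, and in MES 4.33 at chr19:10899098-10899167. Of the EPI peaks 11 overlapped a MES peak, and of the MES peaks 9 overlapped an EPI peak. At a log2 of at least 2 and a -log10 adjusted p of at least 3, 9 EPI and 6 MES peaks remained. The highest peaks elsewhere were 4.12 for NUMB (chr14:73924665-73924684), 3.78 for CLTB (chr5:175827585-175827631) and 3.82 for EHBP1 (chr2:62933191-62933248) in EPI, and 3.11 for ITSN1 (chr21:35201541-35201704) in MES, the last in an exon of a transcript not annotated as coding. All 8 NUMB peaks lay between 253 and 678 nt after the gene start, far from its variable exons. No peak of any of the 8 genes lay within 1000 nt of a variable exon named here. The nearest were an EPI peak 1374 nt from the 54 nt exon of CLTB, the MES peak 2374 nt from the 46 nt exon of ITSN1, and an EPI peak 3800 nt from the 12 nt exon of DNM2.

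**Figure D4:**
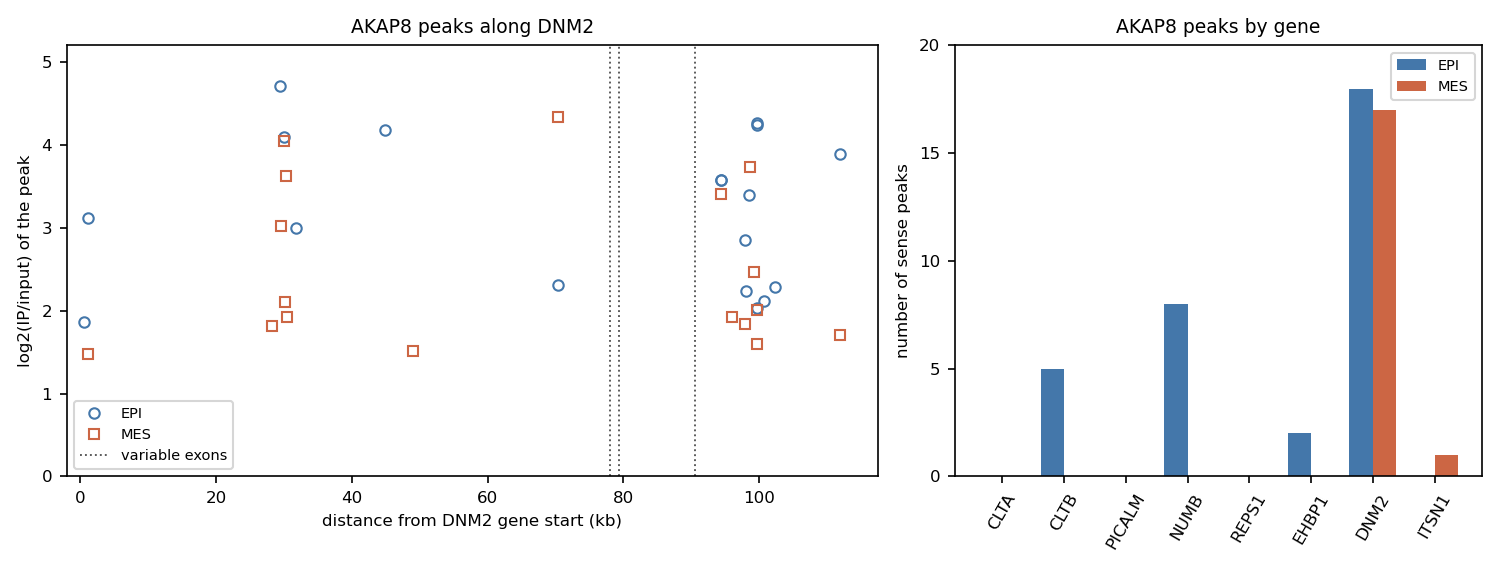
On the left, the log2 of IP over input of each DNM2 peak (vertical axis) is plotted against its distance from the gene start in kb (horizontal axis), with dotted lines at the 12 nt and 139 nt exons; on the right, bars count the sense peaks of each gene. The dotted lines fall in a stretch without peaks, and CLTA, PICALM and REPS1 have none.

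The strongest DNM2 peak of each state is printed to show its sequence, with capitals at matches to a run of 3 G between A or T. The letters searched were AGGGA, the same run with T at its end, AGGGT, with T at its start, TGGGA, and with T at both ends, TGGGT, on the transcribed strand and with overlaps counted.
DNM2 peak, EPI: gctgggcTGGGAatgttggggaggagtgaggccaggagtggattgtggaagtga
DNM2 peak, MES: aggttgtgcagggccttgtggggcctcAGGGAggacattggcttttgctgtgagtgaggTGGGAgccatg
Within 101 nt around the peak centre, 28 of the 33 EPI peaks of the 8 genes (84.8%) and 15 of the 18 MES peaks (83.3%) held a match, close to the 81.5% and 78.4% of all peaks in the lists. In the 300 nt on each side of the exons, matches were 2 for the 12 nt exon of DNM2, 6 for its upstream 139 nt exon, 1 for the EHBP1 exon, 4 for the 144 nt NUMB exon and 1 for the 150 nt PICALM exon. Of 52719 variable segments of all genes, 78.3%, 19.7%, 93%, 43.5% and 93% held at least as many. A match is a description of letters and not a binding site.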

How the data were processed

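The authors aligned stranded paired poly(A) reads to GRCh37 with STAR and counted junction reads with rMATS. The 15 deposited tables list these reads by library for 5 event types in 3 comparisons. The 30 deposited columns of PSI per library and the authors' p-values were not used, nor were the fold changes and p-values in the authors' gene table. For eCLIP, the authors deposited 1 log2 enrichment of IP against input per peak, with its −log10 adjusted p, merged over 2 replicates. Positions were annotated with Gencode 44 lifted to GRCh37.

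PSI was recomputed from the reads and effective lengths. Inclusion against skipping reads was tested with a quasi-binomial F test over all events with a mean of at least 20 reads per library. Dispersions were moderated with limma 3.58.1, and p-values were Benjamini-Hochberg adjusted within each event type. The MES knockdown tables hold 2 of the 3 MES control libraries. The difference between the knockdown effects was tested in 1 fit over 11 libraries. Summed junction reads per gene were divided by median-of-ratios factors, kept if 2 or more libraries reached 10, and tested with limma on log2(value + 1). Methods were tested on simulated data.

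The 8 genes, the list of 78 genes and the markers were chosen with earlier results of these data known. Exons named were all changed events, the variable exon with the most reads of each gene, and for other event types up to 2 events with the largest difference at an unadjusted p under 0.05. Genes of the list were named by the smallest adjusted p or the largest PSI difference, except TOM1, chosen after its value was seen, and peaks by the highest value. Alternatives changed the filter, dispersion, test, scaling and cutoffs, added a replicate block or left out 1 library. Some genes that met these rules are not reported here.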

Additional observations from a re-analysis of the deposited data

How the results depend on the processing

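No exon or gene past the FDR took the other sign under an alternative, but 21 of 85 single values, none of them past the FDR, did. In EPI knockdown the 1 changed event of the 8 genes became 0 with limma on the logit of PSI, 0 without a read filter, 0 with adjustment over all event types and 0 without effective lengths, and 0 to 1 when single libraries were left out. In MES knockdown the 2 became 0 with limma on the logit, 4 with a dispersion trend on all reads and 0 to 2 when single libraries were left out, which assumes that a lone library varies like the other group. In EMT the 13 changed events (SE and MXE) became 2 with limma on the logit and 8 to 14 when single libraries were left out, the lowest without the third EPI control library. The cause of these changes was not tested. Of the 59 listed and 8 chosen genes, 1 changed in MES knockdown, and 2 with scaling to total reads, 3 without a fold cutoff, 2 with reads of events near 0% or 100% inclusion (chosen after seeing the data) and 0 to 2 when libraries were left out. In EMT 9 changed, 16 without a fold cutoff and 8 to 11 when libraries were left out. The 33 EPI peaks became 24 at a log2 of at least 3 and 6 at 4. Within 2000 nt of a named exon lay 1 EPI peak, against 0 within 1000 nt. The 18 MES peaks became 7 at 3, 2 at 4 and 7 at the high-confidence threshold (chosen after seeing the data).

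Libraries at the same list position were not shown to pair: the correlation of their deviations was 0.036, 0.20 and 0.14 in EPI, and -0.063, 0.043 and 0.045 in EMT. In MES it was 0.25, a single value, as 2 libraries per group force both pairs to be equal. With a replicate block by list position the MES knockdown count was 0 and the EMT count 8. In EPI the libraries at 2 of the 3 positions correlated best with their own. Both positions did so in MES, and in EMT only position 3 did. The 46 nt exon of ITSN1 rested on 47 to 107 reads per library.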
